A study of Homo sapiens with 12 samples.

Results

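The transcripts of 6 genes were followed in MIAPaCa2 cells, a human pancreatic ductal adenocarcinoma line: MLXIP, which encodes the glucose-sensing transcription factor MondoA, its partner MLX, and the alpha-arrestin genes TXNIP, ARRDC4, ARRDC2 and ARRDC3. The genes were chosen by name, for their place in this pathway, from 26475 genes in the deposited table. Earlier results of these data were known when this choice was made. Of the 6, 5 were among the 14582 genes with enough reads to be tested, and ARRDC4 was not. Poly(A)-selected RNA of 12 samples was sequenced, 3 in each of 4 groups: parental cells labelled untreated, parental cells given sodium oxamate, oxamate-resistant cells labelled untreated, and oxamate-resistant cells given sodium oxamate. Oxamate is a pyruvate analogue that inhibits lactate dehydrogenase A (LDHA). The resistant cells were the survivors of several weeks of continuous culture in oxamate and were used as a mixed population rather than as a single clone, so "resistant" describes 1 selected population of 1 cell line. The labels call the control cultures untreated, while the study's text calls them vehicle-treated. The study names a dose for selecting the resistant cells and for its colony, chromatin and metabolite assays, but for the RNA cultures neither the dose nor the length of treatment was given in the sources used here. Nothing in the labels says that the 3 replicates of a group were separately derived cultures, so p-values measure the spread between these samples, which may be technical.

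MondoA and MLX are basic helix-loop-helix leucine zipper proteins that bind DNA as a pair. MondoA is held in the cytoplasm, near the outer mitochondrial membrane, and moves to the nucleus when glucose-6-phosphate accumulates. There the pair activates genes whose promoters carry carbohydrate response elements, and TXNIP and ARRDC4 are its best-known targets. TXNIP and ARRDC4 proteins both restrain glucose uptake, and TXNIP also binds thioredoxin. ARRDC2 and ARRDC3 are related adaptors that bring ubiquitin ligases of the NEDD4 family to membrane proteins.

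The libraries held between 46698729 and 114222169 expected counts, and every parental library was deeper than every resistant library. Levels are given in CPM, counts brought to a common library size with the trimmed mean of M-values (TMM), as mean ± SD over 3 libraries. Fold changes and p-values come from edgeR's quasi-likelihood test over all 14582 genes, with Benjamini-Hochberg adjustment, and a gene was called at an adjusted p under 0.05. The cytokeratin genes KRT8, KRT18 and KRT19 and VIM were detected throughout, whereas the epithelial genes EPCAM and CDH1 and the immune marker PTPRC had at most 3 counts in any library. CDKN2A, which is deleted in this line, was at 0 in every library. KRT8 averaged 1458 CPM in untreated parental and 676 CPM in untreated resistant cells, and what such differences between the lines contribute to the results below was not tested. MALAT1, a nuclear long noncoding RNA that is sensitive to how RNA is prepared, stood apart within 2 groups: it was at 596 CPM in the third oxamate-treated parental library, against 281 and 289 CPM in the others, and at 597 CPM in the third untreated resistant library, against 244 and 273 CPM. As these are bulk samples, a change in the share of cells that express a gene and a change in its RNA per cell cannot be told apart.

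The promoters of the 3 arrestin genes that the results turn on are shown here because a carbohydrate response element, 2 E-box-like sites at a fixed distance, is how the MondoA and MLX pair recognises its targets. The windows are the 250 bases before the RefSeq start on GRCh38.p14, written 5′ to 3′ on the strand of the gene. For TXNIP the window is chr1:145996580-145996829 (minus strand), for ARRDC4 chr15:97960453-97960702 (plus strand) and for ARRDC3 chr5:91383318-91383567 (minus strand). Capitals mark a paired E-box in TXNIP (CACGNG or CNCGTG, then 5 bases, then CACGNG or CNCGTG) and a single E-box, CACGTG, in ARRDC4.
TXNIP: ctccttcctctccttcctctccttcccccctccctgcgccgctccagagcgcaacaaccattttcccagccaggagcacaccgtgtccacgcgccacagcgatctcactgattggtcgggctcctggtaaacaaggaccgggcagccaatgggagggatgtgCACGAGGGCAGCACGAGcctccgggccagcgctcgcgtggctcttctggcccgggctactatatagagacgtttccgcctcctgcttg
ARRDC4: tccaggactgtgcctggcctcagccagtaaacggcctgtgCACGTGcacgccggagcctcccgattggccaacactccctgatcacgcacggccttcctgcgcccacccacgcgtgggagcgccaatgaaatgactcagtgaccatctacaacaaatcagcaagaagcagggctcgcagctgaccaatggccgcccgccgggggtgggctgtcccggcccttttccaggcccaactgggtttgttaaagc
ARRDC3: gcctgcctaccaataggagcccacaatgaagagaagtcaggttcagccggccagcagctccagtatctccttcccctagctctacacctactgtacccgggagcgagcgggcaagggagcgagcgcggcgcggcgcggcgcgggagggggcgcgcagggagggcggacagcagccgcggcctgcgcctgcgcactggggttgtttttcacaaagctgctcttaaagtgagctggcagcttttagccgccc

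The search covered both strands and the 300 bases from 250 before to 50 after each start. The paired E-box of TXNIP, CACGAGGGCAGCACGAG, lay 88 to 72 bases before the start. It was a rare match: 27 of 35116 RefSeq promoter windows of the same length, or 0.0769%, held a sequence of this form, and no window of the other 5 genes did. The single E-box CACGTG was found in ARRDC4, 210 to 205 bases before the start, and in MLX, 50 to 45 bases before it, and 7.26% of all windows held it. A paired E-box can contain a CACGTG, so the 2 searches overlap in principle. CCAAT (read as ATTGG on the other strand) occurred at 2 places in the TXNIP window and at 3 in the ARRDC4 window, and once in the most upstream window of MLXIP, MLX and ARRDC3, against 34.6% of all windows with at least 1. RefSeq gave a second start for TXNIP, ARRDC2 and ARRDC3. The second window of ARRDC2 held a CCAAT and a TATAAA, the latter found in 11.5% of all windows, and the second windows of TXNIP and ARRDC3 held none of these motifs. A match is a run of letters only, and occupancy by MondoA was not measured.

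**Figure D1:**
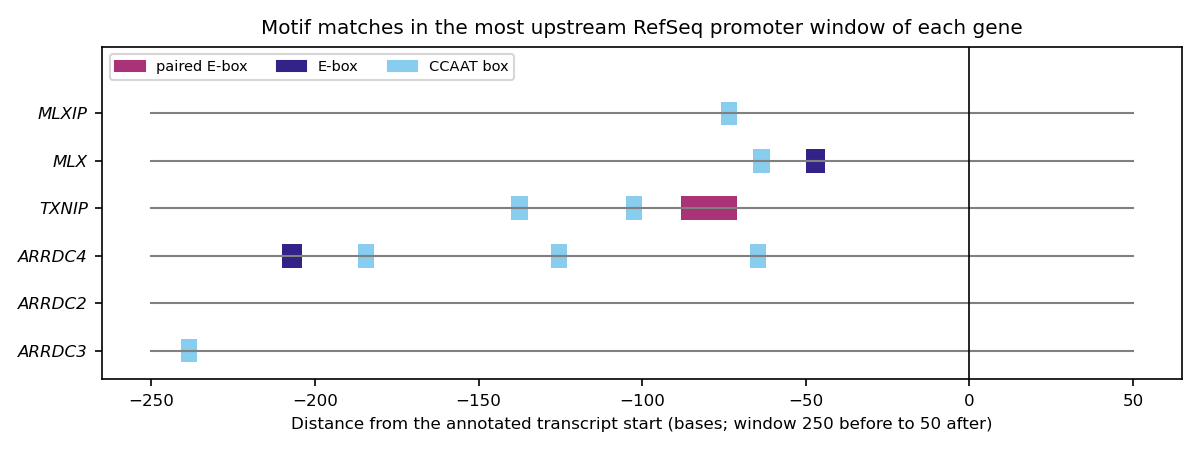
Positions of the motifs in the most upstream RefSeq promoter window of each of the 6 genes, with distance from the start site in bases on the horizontal axis and 1 gene per line. The paired E-box is in the TXNIP window alone, 88 to 72 bases before the start, and single E-boxes are in the ARRDC4 and MLX windows.

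**Figure D2:**
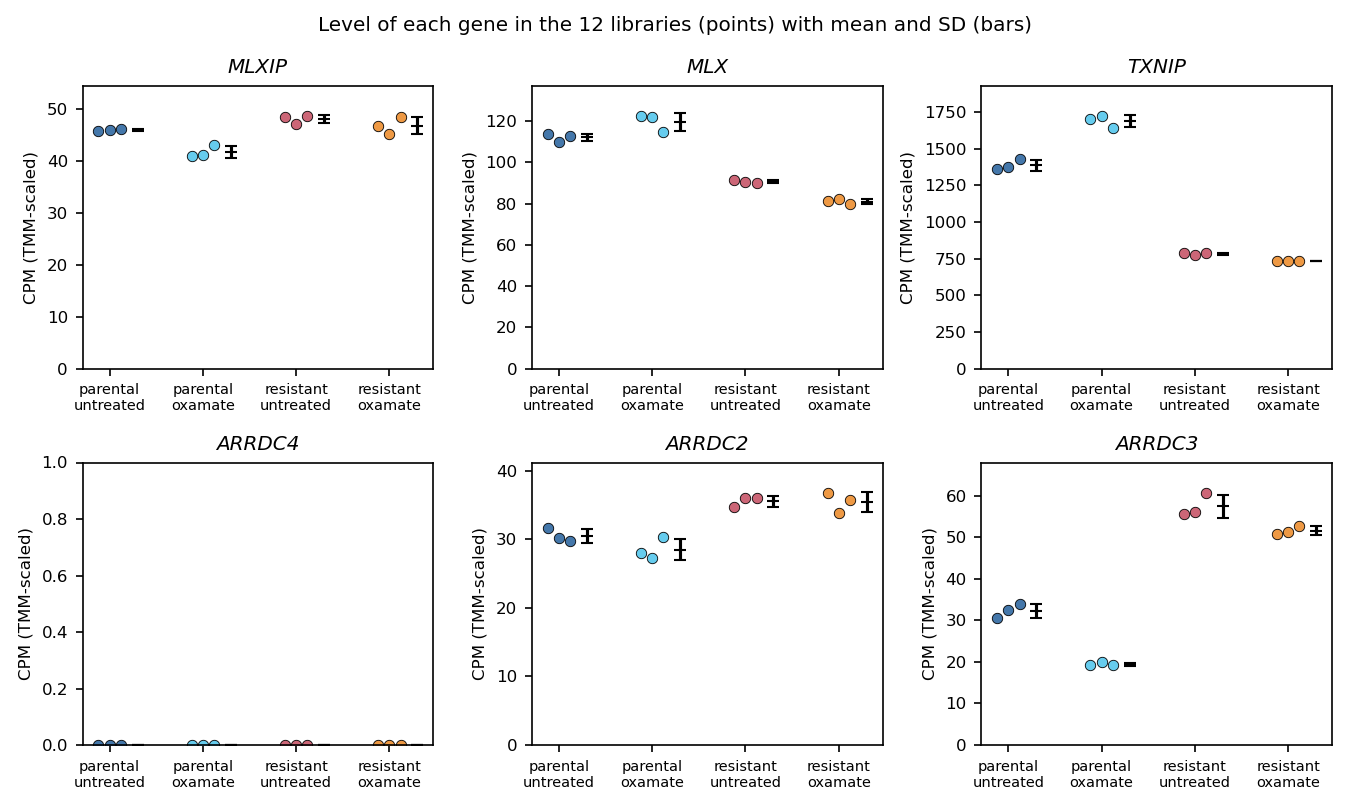
Level of each of the 6 genes in every library, in TMM-scaled CPM on linear axes that start at 0, with 1 panel per gene, 1 point per library and, beside each group of 3, its mean with bars of 1 SD. TXNIP and MLX are highest in oxamate-treated parental cells, ARRDC3 is highest in untreated resistant cells, and ARRDC4 is at 0 throughout.

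MLXIP, the sensor itself, had the smallest differences between the lines of the 5 tested genes under TMM scaling. With library totals alone these differences were larger, at 0.28 without drug and 0.49 under oxamate on the log2 scale. The gene lies at chr12:122078722-122147347 (GRCh38, plus strand, 17 merged exons). Its level was 45.6, 45.9 and 46.1 CPM in the untreated parental libraries and 40.9, 41.1 and 42.9 CPM in the oxamate-treated parental libraries. It was 48.4, 47.0 and 48.5 CPM in the untreated resistant libraries and 46.7, 45.2 and 48.3 CPM in the oxamate-treated resistant libraries. The oxamate-treated parental libraries were the lowest of the 12, and the other 3 groups lay within a few CPM of each other. In parental cells oxamate lowered MLXIP by a log2 change of -0.14 ± 0.03 (SE, adjusted p = 0.00116). In resistant cells the change was -0.04 ± 0.03 (adjusted p = 0.418), with overlapping groups. Without drug the resistant libraries were all above the parental ones, yet the log2 difference of 0.07 ± 0.03 missed the threshold (adjusted p = 0.0623), and passed it without the second untreated resistant library (0.08, adjusted p = 0.0491). Under oxamate the resistant cells had more MLXIP by 0.17 ± 0.03 (adjusted p = 0.000153).

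MLX, the DNA-binding partner, was lower in resistant cells and, under TMM scaling, moved in opposite directions under oxamate in the 2 lines. The gene lies at chr17:42567068-42573239 (plus strand, 8 merged exons). The untreated parental libraries had 114, 110.0 and 113 CPM, and the oxamate-treated parental libraries had 122, 122 and 115 CPM. The untreated resistant libraries had 91.6, 90.5 and 89.9 CPM, and the oxamate-treated resistant libraries had 81.1, 82.2 and 79.6 CPM. None of the 4 groups overlapped another. Oxamate raised MLX in parental cells (log2 0.09 ± 0.03, adjusted p = 0.0084) and lowered it in resistant cells (-0.16 ± 0.03, adjusted p = 0.00118). The rise in parental cells was small: it came to 0.02 (adjusted p = 0.493) when libraries were scaled by their totals alone. Resistant cells had less MLX than parental cells without drug (-0.31 ± 0.03, adjusted p = 6.25e-08) and with it (-0.56 ± 0.03, adjusted p = 2.49e-11). With library totals alone these differences were smaller, at -0.086 (adjusted p = 0.00301) and -0.24 (adjusted p = 1.64e-07).

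The reads of MLX are shared with a neighbour. PSMC3IP lies on the opposite strand and overlaps the exons of MLX by 770 bases, and the library kit did not mark strand. The deposited counts of MLX were not whole numbers, but the sum of MLX and PSMC3IP was whole (within 0.01) in 12 of 12 libraries, so reads had been divided between the pair by estimation. With the reads of both genes summed, an alternative added after the data were seen, all 5 calls for MLX held: the log2 change under oxamate was 0.13 in parental cells (adjusted p = 0.000662) and -0.17 in resistant cells (adjusted p = 0.000681). The counts of the other 5 genes were whole in every library.

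TXNIP was by far the most abundant of the 6 and was higher in parental than in resistant cells, by 1.77-fold without drug under TMM scaling. The gene lies at chr1:145992435-145996600 (minus strand, 8 merged exons). The untreated parental libraries had 1359, 1373 and 1428 CPM, and the oxamate-treated parental libraries had 1705, 1722 and 1643 CPM. The untreated resistant libraries had 790.3, 775 and 786 CPM, and the oxamate-treated resistant libraries had 731, 735 and 732 CPM. No group overlapped another, and every parental library was above every resistant one. As a share of all reads counted, with no scaling between libraries, TXNIP took 0.126% to 0.134% in untreated and 0.148% to 0.151% in oxamate-treated parental cells. The same share was 0.0835% to 0.0863% in untreated and 0.0811% to 0.0817% in oxamate-treated resistant cells.

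Oxamate raised TXNIP in parental cells by 1.22-fold (log2 0.29 ± 0.02, adjusted p = 9.69e-08). In resistant cells it lowered TXNIP by 1.07-fold (log2 -0.10 ± 0.02, adjusted p = 0.0125). The second change was small and close to the threshold. It lost its call without the first untreated resistant library (adjusted p = 0.0526) and in a fit with MALAT1 as a covariate (log2 -0.08, adjusted p = 0.0785). Without the 2 MALAT1-rich libraries named above, an alternative also chosen after the data were seen, the calls for TXNIP stood in all 5 comparisons. In resistant cells this removal could not even out MALAT1. It left 273 and 244 CPM in the untreated libraries against 577, 609 and 742 CPM in the oxamate-treated ones. Under TMM scaling TXNIP was 1.77-fold lower in resistant than in parental cells without drug (log2 -0.82 ± 0.02, adjusted p = 1.29e-13) and 2.31-fold lower under oxamate (log2 -1.21 ± 0.03, adjusted p = 8.34e-16). By the unscaled shares of reads given above both differences were smaller. Ranked by log2 difference from the lowest, TXNIP stood at percentile 2.67 of all genes tested in the first of these comparisons and at percentile 2 in the second.

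ARRDC4, the other canonical target of the pathway, had 0 counts in all 12 libraries. The gene lies at chr15:97960698-97973838 (plus strand, 8 merged exons, 4072 exonic bases). A count of 0 allows a level of up to 0.0283 to 0.0581 CPM, taking 3 counts per library as the limit, which covers counting error only. Per kilobase of exon this is 0.00695 to 0.0143 CPM, so that TXNIP was at least 16000-fold higher per kilobase in the library with the smallest ratio and at least 60900-fold higher in the library with the largest. ARRDC4 was 1 of 6562 genes, 24.8% of the table, listed at 0 in every library. No direction can be given for it, and whether the 0 reflects the cells or the transcript set used for counting was not tested.

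ARRDC3 had its highest levels in resistant cells and fell under oxamate in both lines. Its differences between the lines, and its change in parental cells, were opposite in sign to those of TXNIP, while in resistant cells both genes fell. The gene lies at chr5:91368724-91383359 (minus strand, 8 merged exons), and its product is an adaptor known for directing beta-adrenergic receptors and integrin beta 4 to ubiquitination. The untreated parental libraries had 30.6, 32.4 and 33.9 CPM, and the oxamate-treated parental libraries had 19.2, 19.9 and 19.3 CPM. The untreated resistant libraries had 55.7, 56.0 and 60.7 CPM, and the oxamate-treated resistant libraries had 50.9, 51.2 and 52.8 CPM. None of the 4 groups overlapped another. Oxamate lowered ARRDC3 by 1.65-fold in parental cells (log2 -0.73 ± 0.04, adjusted p = 2.05e-09) and by 1.11-fold in resistant cells (log2 -0.15 ± 0.04, adjusted p = 0.0131). Among all genes, 819 (5.62%) were called lower in both lines. The fall in resistant cells lost its call without the third untreated resistant library, the MALAT1-rich one (log2 -0.11, adjusted p = 0.0504), without the first oxamate-treated resistant library (adjusted p = 0.0533), and with scaling by library totals alone (log2 -0.12, adjusted p = 0.0606). Resistant cells had 1.79-fold more ARRDC3 than parental cells without drug (log2 0.84 ± 0.04, adjusted p = 2.81e-11) and 2.65-fold more under oxamate (log2 1.41 ± 0.04, adjusted p = 7.67e-14). A long noncoding RNA on the other strand, ARRDC3-AS1, shares no exonic base with ARRDC3.

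ARRDC2 differed between the lines by a smaller amount and had no called change under oxamate. The gene lies at chr19:18001132-18014102 (plus strand, 9 merged exons). Its level ran from 29.7 to 31.6 CPM in untreated and from 27.3 to 30.3 CPM in oxamate-treated parental cells. It ran from 34.7 to 36.0 CPM in untreated and from 33.9 to 36.8 CPM in oxamate-treated resistant cells. Every resistant library was above every parental library, while the groups overlapped within each line. The log2 change under oxamate was -0.10 ± 0.04 in parental cells (adjusted p = 0.0601) and -0.0034 ± 0.043 in resistant cells (adjusted p = 0.965). The first of these passed the threshold in several alternatives, among them scaling by library totals alone (log2 -0.17) and leaving out the third oxamate-treated parental library, a MALAT1-rich one (log2 -0.15, adjusted p = 0.00724), so it lay at the edge of what 3 replicates resolved. Resistant cells exceeded parental cells by a log2 difference of 0.22 ± 0.04 without drug (adjusted p = 0.000188) and 0.31 ± 0.04 under oxamate (adjusted p = 5.56e-06), or by 0.44 and 0.64 with library totals alone. An unnamed transcript on the other strand overlaps its exons by 202 bases and is not in the table.

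These counts were read against the share of all genes that were called, which was large in every comparison between the lines. In parental cells oxamate changed 4 of 5 tested genes, MLX and TXNIP upward and MLXIP and ARRDC3 downward, where 58.7% of all genes were called, 28.3% higher and 30.4% lower. In resistant cells 3 of 5 fell and none rose, where 21.5% of all genes were called, 9.01% higher and 12.5% lower. That share was the least settled: the 3139 genes called became 1439 with the MALAT1 covariate, 1795 without the second untreated resistant library and 4303 without both MALAT1-rich libraries, and with library totals alone 1753 were higher and 1179 lower. Without drug 4 of 5 differed between the lines, 2 in each direction, where 75.7% of all genes were called, 38.4% higher and 37.3% lower. Under oxamate 5 of 5 differed, 3 higher and 2 lower in resistant cells, where 80.3% of all genes were called, 40.6% higher and 39.7% lower. At a fold of more than 1.5 in addition, 1 gene (ARRDC3) stayed called in parental cells and 0 in resistant cells, against 9.38% and 1.32% of all genes. With the same fold, TXNIP and ARRDC3 stayed called between the lines, both without drug (23.1% of all genes) and with it (34.1%). Groups that did not overlap were likewise common among all genes: 61.6% in parental cells, 41% in resistant cells, 77.7% between the untreated lines and 81.3% between the treated lines. The counts of genes called are therefore close to those of the whole table between the lines, and the description rests on the sizes and directions for each gene.

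**Figure D3:**
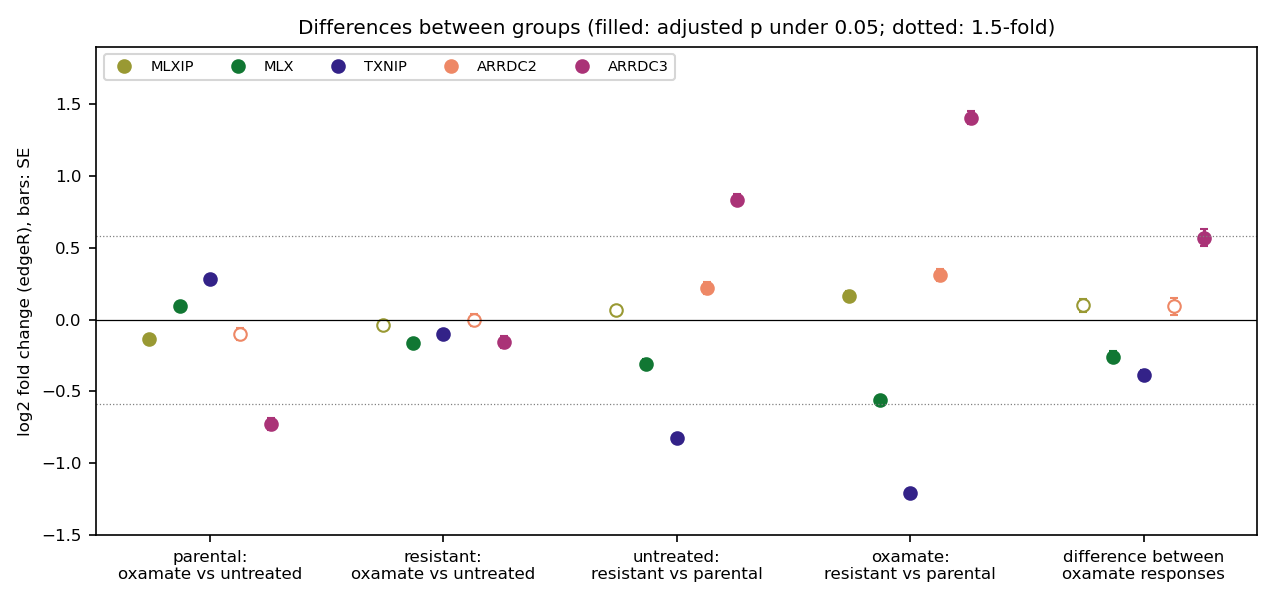
Log2 fold change of each of the 5 tested genes in each comparison, from edgeR, with bars of 1 standard error. TXNIP and ARRDC3 have the largest differences between the lines and lie on opposite sides of 0, whereas MLXIP stays within 0.2 of it.

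The response to oxamate itself differed between the lines for 3 of the 5 genes, 1 higher and 2 lower, where 44.2% of all genes were called, 22.7% higher and 21.4% lower. The difference of responses, resistant minus parental on the log2 scale, was -0.38 ± 0.04 for TXNIP (adjusted p = 5.15e-07), -0.26 ± 0.04 for MLX (adjusted p = 8.4e-05) and 0.57 ± 0.06 for ARRDC3 (adjusted p = 1.7e-06). TXNIP and MLX thus rose in parental and fell in resistant cells, and ARRDC3 fell less in resistant cells. For MLXIP the difference was 0.10 ± 0.04 (adjusted p = 0.0751) and for ARRDC2 0.09 ± 0.06 (adjusted p = 0.224). Both passed the threshold without the third oxamate-treated parental library, a MALAT1-rich one, which brought the count to 5 of 5: MLXIP at 0.12 (adjusted p = 0.034) and ARRDC2 at 0.14 (adjusted p = 0.0498). MLXIP also passed without the second oxamate-treated resistant library (0.12, adjusted p = 0.0402).

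Under TMM scaling the order of the 4 groups was the same for TXNIP and MLX. From high to low it was oxamate-treated parental, untreated parental, untreated resistant, oxamate-treated resistant, with every neighbouring pair separated beyond its spread. For ARRDC3 the order was untreated resistant, oxamate-treated resistant, untreated parental, oxamate-treated parental, again with every neighbour separated. For ARRDC2 both resistant groups stood above both parental groups, and the groups within a line did not differ beyond their spread. For MLXIP the 2 resistant groups and the untreated parental group could not be ordered (untreated parental against oxamate-treated resistant, log2 -0.03 ± 0.03, adjusted p = 0.407), and the oxamate-treated parental group was lowest. Over the 12 libraries TXNIP had a Pearson r of 0.98 with MLX, -0.96 with ARRDC3, -0.95 with ARRDC2 and -0.80 with MLXIP. ARRDC2 and ARRDC3 had an r of 0.92 with each other. These describe 12 libraries that fall into 4 groups which share scaling and sequencing, so they mostly restate the group differences.

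The ratio of TXNIP to ARRDC3, each per kilobase of exon, does not depend on how libraries were scaled. It was 55.0 to 58.0 in untreated parental cells and 111 to 116 in oxamate-treated parental cells. It was 16.9 to 18.5 in untreated and 18.1 to 18.7 in oxamate-treated resistant cells. The treated and untreated parental libraries were thus far apart, whereas the 2 resistant groups overlapped. The ratio of TXNIP to its activator MLXIP was 87.3 to 90.9 and 112 to 123 in untreated and treated parental cells, and 47.5 to 48.3 and 44.4 to 47.6 in untreated and treated resistant cells.

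**Figure D4:**
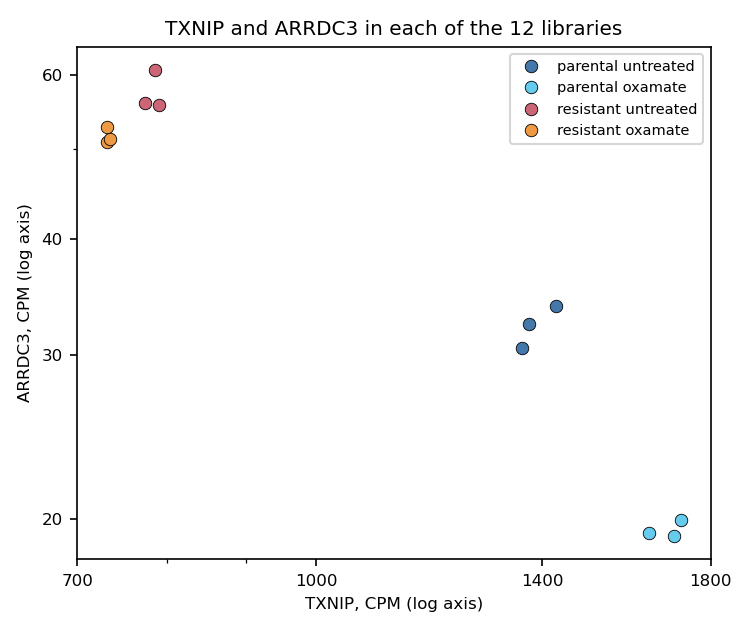
Level of TXNIP (horizontal axis, CPM) against ARRDC3 (vertical axis, CPM), with 1 point per library and 1 colour per group. The 4 groups form separate clusters, with the oxamate-treated parental libraries at the highest TXNIP (1643 to 1722 CPM) and the lowest ARRDC3 (19.2 to 19.9 CPM).

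Compared per kilobase of exon, TXNIP stood at 432 CPM in untreated parental cells, 132nd of 13643 genes with a known length, and at 244 CPM in untreated resistant cells, where it ranked 174th. MLX followed at 43.2 and 35.0 CPM per kilobase, then ARRDC2 at 10.4 and 12.1, ARRDC3 at 7.70 and 13.7, and MLXIP at 4.87 and 5.09. MLXIP was therefore close in level to MLXIPL, the gene of the paralogous sensor ChREBP, at 4.93 CPM per kilobase in untreated parental and 4.71 in untreated resistant cells. ARRDC3 exceeded ARRDC2 per kilobase in untreated resistant cells and was below it in parental cells. In oxamate-treated resistant cells the means of ARRDC3 and ARRDC2 were close, at 12.3 and 12.0 CPM per kilobase.

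The genes whose levels over the 12 libraries were most like each of the 5 were picked by Pearson r from the 12425 genes that averaged 1 CPM or more. For TXNIP they were HSP90AB1 (r = 0.9986), KTN1 (0.9984), LSM12 (0.9983), RRM2 (0.9983) and DNAJB1 (0.9981). DNAJB1, a heat shock co-chaperone, averaged 766 CPM in untreated and 1126 CPM in oxamate-treated parental cells, and 303 and 265 CPM in the matching resistant groups. For ARRDC3 they were CCND1 (0.998), TRAPPC8 (0.9972) and JMY (0.997). CCND1, the gene of cyclin D1, averaged 102 and 68.9 CPM in parental and 161 and 149 CPM in resistant cells, untreated then treated. For MLX they were PLBD1, PPAP2C and SBDS (0.9953 to 0.9975), for MLXIP PRDM11, TJP1 and BRD1 (0.9695 to 0.9791), and for ARRDC2 ZNF549, SIX5 and NPB (0.9782 to 0.9791). With 4 separated groups, values of r this high describe a shared order of groups.

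The sensor pair belongs to a wider network of factors that compete for MLX and MAX, and its other members did not move as a body. Of 10 tested genes of this network 5 rose and 4 fell under oxamate in parental cells, and 1 rose and 4 fell in resistant cells. For this and the following lists the shares of all genes called were 58.7% in parental and 21.5% in resistant cells. Between the lines they were 75.7% without drug and 80.3% under oxamate. Between the lines 2 were higher and 5 lower in resistant cells without drug, and 3 were higher and 7 lower under oxamate. With library totals alone these tallies turned, to 5 higher and 2 lower without drug and 6 higher and 3 lower under oxamate. The median log2 difference was -0.11 without drug, against 0.03 for all genes, and it became 0.11 with library totals alone, under which the median of all genes also moved by 0.22. MXD1, a MAX partner that represses transcription, averaged 21.6 CPM in untreated and 32.0 CPM in oxamate-treated parental cells, against 11.3 and 9.02 CPM in the resistant groups. MGA, a large MAX partner, was opposite, at 21.6 and 12.2 CPM in parental and 30.9 and 29.8 CPM in resistant cells. MYC was at 263 and 241 CPM in parental and 237 and 204 CPM in resistant cells, and its differences between the lines changed sign with library totals alone. MAX differed little, at 33.2 to 36.9 CPM over the 4 groups. MLXIPL rose in parental cells (log2 0.30, adjusted p = 0.00107), from 17.6 to 21.7 CPM.

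Other genes reported as targets of MondoA or ChREBP mostly followed the direction of TXNIP. Of 15 listed genes 12 were tested, while PKLR, THRSP and G6PC were too low. Under oxamate 7 rose and 3 fell in parental cells, with a median log2 change of 0.13 against 0.00 for all genes. In resistant cells 1 rose and 8 fell, with a median of -0.14 against 0.00. Without drug 3 were higher and 9 lower in resistant cells, but with library totals alone 3 were higher and 5 lower and the median of -0.21 became 0.0048. Under oxamate 2 were higher and 8 lower, with a median of -0.59 (-0.27 with library totals alone). HK2, the hexokinase that makes glucose-6-phosphate, was at 237 ± 0.917 CPM in untreated and 397 ± 7.98 CPM in oxamate-treated parental cells, and at 158 ± 1.76 and 141 ± 2.19 CPM in the resistant groups. PFKFB3, which makes the activator of phosphofructokinase, was at 156 and 173 CPM in parental and 99.8 and 74.9 CPM in resistant cells. KLF10, a transcription factor gene, was at 58.6 and 76.5 CPM in parental and 47.1 and 36.7 CPM in resistant cells. ELOVL6, a fatty acid elongase, went the other way, at 2.77 and 2.52 CPM in parental and 5.19 and 5.38 CPM in resistant cells.

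The genes of glucose entry, on whose transporters TXNIP and ARRDC4 act, rose in parental cells under oxamate and were lower in resistant cells. HK2 is also in the list of targets above. All 9 listed genes were tested, and 8 rose and 0 fell under oxamate in parental cells (median log2 0.44). In resistant cells 2 rose and 4 fell. Between the lines 9 of 9 were lower in resistant cells without drug (median -0.42) and under oxamate (median -0.997), against medians of 0.03 and 0.01 for all genes. With library totals alone 6 and 7 of the 9 were called lower, with medians of -0.20 and -0.67. SLC2A1, the gene of the transporter GLUT1, was at 170 and 262 CPM in untreated and treated parental cells and 100.3 and 87.4 CPM in the resistant groups. SLC2A3, the gene of GLUT3, was at 347 and 521 CPM in parental and 249.7 and 165 CPM in resistant cells. GPI, glucose-6-phosphate isomerase, rose in both lines (log2 0.86 and 0.30), and HKDC1, a hexokinase-like gene, rose in parental (0.44) and fell in resistant cells (-0.65).

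The ubiquitin ligases that arrestin-domain proteins recruit moved, where called, mostly in the direction of ARRDC3. Of 9 genes of the NEDD4 family 0 rose and 7 fell under oxamate in parental cells (median log2 -0.18), and 0 rose and 1 fell in resistant cells (0.01). In resistant against parental cells 5 were higher and 2 lower without drug (median 0.30), and 8 were higher and 0 lower under oxamate (median 0.50), against medians of 0.03 and 0.01 for all genes. Scaled by library totals alone, 8 were higher and 1 lower without drug (median 0.52) and 8 higher and 0 lower under oxamate (median 0.83). NEDD4L was at 46.3 and 48.0 CPM in parental and 104 and 101 CPM in resistant cells. SMURF2 fell from 63.3 to 44.5 CPM under oxamate in parental cells (log2 -0.51, adjusted p = 8.77e-10) and was at 80.6 and 79.1 CPM in resistant cells. NEDD4 was at 16.0 and 12.4 CPM in parental and 23.1 and 20.9 CPM in resistant cells. ITCH, known to ubiquitinate TXNIP, was at 69.1 and 61.6 CPM in parental and 84.8 and 85.5 CPM in resistant cells. The 2 lower genes without drug were HECW1, at 4.78 CPM in untreated parental and 2.76 CPM in untreated resistant cells, and SMURF1, whose difference changed sign with library totals alone and which is named here after its values were seen.

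Among the other arrestins, 3 of 4 listed genes were tested. ARRB1, the gene of beta-arrestin 1, rose under oxamate in parental (log2 0.40) and resistant cells (0.15) and was higher in resistant cells without drug (0.49) and with it (0.24). ARRDC1 was lower in resistant cells without drug (-0.22) and with it (-0.36), at 73.2 and 76.4 CPM in parental and 62.8 and 59.3 CPM in resistant cells, but with library totals alone these differences came to -0.0022 and -0.04. The third, ARRB2, was chosen for mention after its values were seen, and its difference between the lines changed sign with library totals alone.

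The thioredoxin system, which TXNIP protein binds through TXN, was mostly lower in resistant cells under TMM scaling, less so with library totals alone. Under oxamate 3 of 12 genes rose and 5 fell in parental cells (4 rose and 3 fell without the 2 MALAT1-rich libraries), and 1 rose and 2 fell (4 without those libraries) in resistant cells. Between the lines 1 was higher and 10 lower without drug (median log2 -0.32, or -0.10 with 2 higher and 7 lower by library totals alone), and 2 were higher and 10 lower under oxamate (median -0.44, or -0.11 with 5 higher and 6 lower by library totals alone). TXNRD3, a thioredoxin reductase, was the gene that rose in resistant cells (log2 0.21, adjusted p = 0.00219), at 16.1 and 14.7 CPM in parental and 16.5 and 19.2 CPM in resistant cells. PRDX1, a peroxiredoxin, was at 931 and 857 CPM in parental and 536 and 545 CPM in resistant cells. TXN itself was at 201 and 189 CPM in parental and 169 and 163 CPM in resistant cells, and TXNRD1, its reductase, at 608 and 474 CPM in parental and 446 and 410.4 CPM in resistant cells. For TXN and TXNRD1 the difference between the lines under oxamate changed sign with library totals alone.

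**Figure D5:**
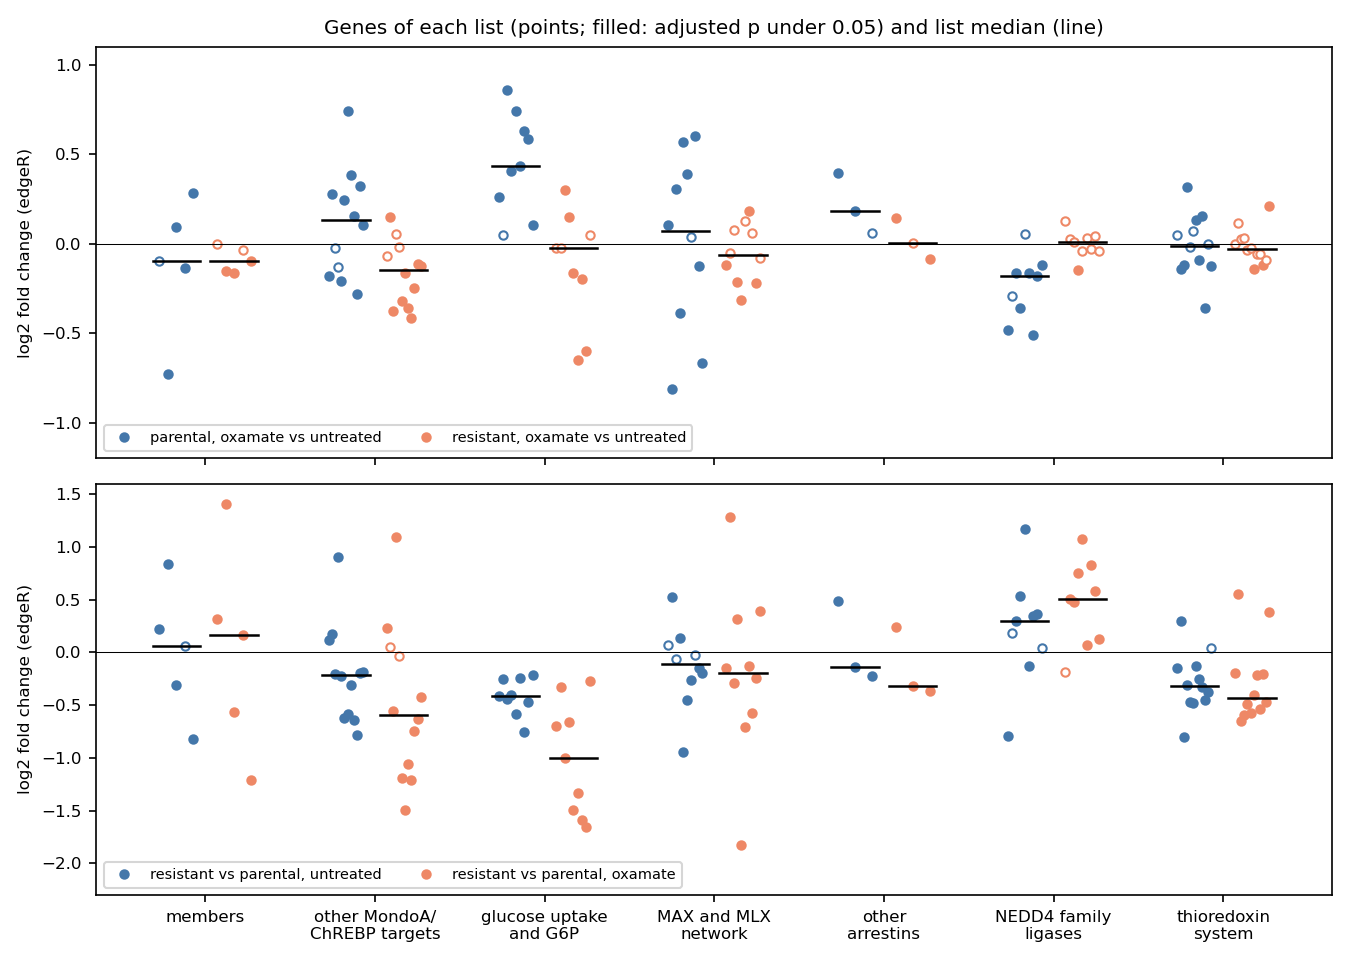
Log2 fold change of every tested gene of the related gene lists, with 1 panel of comparisons for oxamate against untreated and 1 for resistant against parental cells, filled points where a gene was called and a line at the median of each list. The glucose uptake genes lie above 0 in parental cells under oxamate (median 0.44) and below 0 in resistant against parental cells, and the medians of the NEDD4 ligases lie on the opposite sides (-0.18 in parental cells, 0.30 and 0.50 between the lines).

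The nuclear-retained RNAs moved with the groups as well. MALAT1 averaged 193 ± 9.10 CPM in untreated and 389 ± 180 CPM in oxamate-treated parental cells, and 371 ± 196 and 643 ± 87.5 CPM in the resistant groups. NEAT1 averaged 139 ± 14.3 and 365 ± 182 CPM in parental and 364 ± 122 and 584 ± 109 CPM in resistant cells. All 4 RNAs of this kind that were tested were called higher under oxamate in parental cells. TXNIP and ARRDC3 kept their calls with MALAT1 as a covariate in both comparisons between the lines and in parental cells, and the values for TXNIP were 0.30 in parental cells, -0.81 between untreated lines and -1.19 between treated lines. As MALAT1 itself differed between the groups, the covariate takes up part of the group differences and cannot separate RNA preparation from them.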

How the data were processed

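RNA was enriched on oligo(dT) beads and made into NEBNext libraries that do not mark strand. The authors mapped reads with Bowtie2 2.1.0 and used RSEM 1.2.15 to estimate an expected count for each gene, on hg38 according to the submitters' processing notes. The methods also describe a counter that gives whole numbers, but 11.6% of the deposited expected counts were not whole. The table was deposited without normalization.

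Rounded expected counts entered edgeR 4.0.16 under R 4.3.3, where filterByExpr left 14582 of 26475 genes, libraries were TMM-scaled, and the quasi-likelihood test was run on 4 group means, with adjustment after Benjamini and Hochberg and a threshold of 0.05. Loci and exon lengths came from GENCODE on GRCh38, and promoters from RefSeq on GRCh38.p14, which held a window for 6 of the 6 genes. The script was tested on simulated data. The members and the gene lists were chosen with earlier results of these data known. The text names all members, a fixed set of pathway genes, the most changed called gene of each pathway list in each comparison (marker and nuclear-retained RNA lists aside), and the genes with the highest r. Same-numbered replicates were not treated as pairs. Alternatives were other scalings, no filter, unrounded counts, limma 3.58.1 (voom), DESeq2 1.42.0, a replicate block, a MALAT1 covariate, a test against 1.5-fold, only the samples compared, and leaving out each library. The upper limit for ARRDC4 covers counting error only, whereas SDs and standard errors reflect the spread between libraries.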

Additional observations from a re-analysis of the deposited data

Results flagged for a closer look

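For 3 genes the response to oxamate differed between the lines by the test of the difference itself (quasi-likelihood test in edgeR, adjusted after Benjamini and Hochberg), where 44.2% of all genes were called. The resistant minus the parental response was 0.57 on the log2 scale for ARRDC3, with 3 of 3 oxamate-treated libraries below all untreated ones in each line. It was -0.38 for TXNIP and -0.26 for MLX. In TMM-scaled CPM, 3 of 3 oxamate-treated libraries were above the untreated ones in parental cells and below them in resistant cells for both genes. As an unscaled share of reads, MLX overlapped in parental cells, at 0.0104% to 0.0107% treated and 0.0103% to 0.0105% untreated. Groups did not overlap for 61.6% of all genes in parental and 41% in resistant cells.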

How the results depend on the processing

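Directions of the called values held for all 5 tested genes under every alternative that refitted them, and the limits were as follows. In a test against a fold change of 1.5, the members called numbered 1 in parental cells, 0 in resistant cells, 2 between the untreated lines, 2 between the treated lines and 0 for the difference of responses, and all genes called numbered 376, 6, 1999, 3590 and 258. This test reuses the log2 values of the main fit, so for the calls lost there they could not change. MLXIP had -0.14 in parental cells and 0.17 between treated lines. MLX had 0.094, -0.16, -0.31 and -0.56 in the 4 comparisons and -0.26 for the difference. TXNIP had 0.29 in parental cells, -0.10 in resistant cells and -0.38 for the difference. ARRDC2 had 0.22 and 0.31 between the lines, and ARRDC3 had -0.15 in resistant cells and 0.57 for the difference.

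With library totals alone the median of all genes moved by -0.07, 0.03, 0.22, 0.32 and, for the difference, 0.11. The genes called higher and lower were then 2853 and 5922 (TMM: 4124 and 4439) in parental cells, 1753 and 1179 (1314 and 1825) in resistant cells, 8540 and 2769 (5602 and 5436) between untreated lines, 9133 and 2819 (5923 and 5785) between treated lines, and 5050 and 1756 (3313 and 3125) for the difference. With upper-quartile factors they were 1679 and 1269 in resistant cells. Under library totals alone the change in parental cells was 0.019 for MLX and -0.17 for ARRDC2, that in resistant cells was 0.027 for ARRDC2 and -0.12 for ARRDC3, MLXIP between untreated lines was 0.28, and the difference of responses was 0.21 for MLXIP and 0.20 for ARRDC2, which called 5 members. Upper-quartile factors gave 0.020 for ARRDC2 in resistant cells and 0.14 for MLXIP between untreated lines. ARRDC2 in parental cells was -0.10 with RLE factors, -0.10 without the filter and -0.15 with the MALAT1 covariate, and each passed the threshold. That covariate gave -0.081 for TXNIP in resistant cells (not called), 0.10 for the difference for MLXIP (called) and 1439 genes called in resistant cells. Fitting the compared samples alone gave 0.0012 for ARRDC2 in resistant cells and 0.074 for MLXIP between untreated lines. The difference of responses cannot be fitted that way, as it uses all samples.

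Same-numbered samples of different groups correlated at -0.074 to 0.245 (18 pairs, 3 of them over 0.1). Differently numbered ones correlated at -0.203 to 0.119 (36 pairs, 2 of them over 0.1). A sample correlated best with its own number in 17 of 36 cases, each a choice among the 3 samples of another group. The labels give replicate numbers only, and these were not taken as pairs in the main fit. With the replicate block ARRDC2 in parental cells was -0.10 (adjusted p = 0.049), MLXIP between untreated lines 0.064 (adjusted p = 0.0453) and the difference for MLXIP 0.10 (adjusted p = 0.0471), and it changed no other call.

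Leaving out libraries gave ARRDC2 -0.15 to -0.067 in parental cells and -0.031 to 0.027 in resistant cells, TXNIP -0.11 to -0.092 and ARRDC3 -0.18 to -0.11 in resistant cells, MLXIP 0.056 to 0.081 between untreated lines, the difference 0.075 to 0.13 for MLXIP and 0.064 to 0.15 for ARRDC2, 3 to 5 members called for the difference, and 1795 (without the second untreated resistant library) to 4303 genes (without both MALAT1-rich libraries) called in resistant cells. It was 1850 without the first untreated resistant library and 1886 without the third oxamate-treated resistant one. Apart from values shown by the setting itself, the cause was not tested.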

Other observations

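ARRDC3 is also known as a target of FOXO factors, and TXNIP and ARRDC2 respond to glucocorticoids in other cells, so these programmes were counted as well. The 11 genes listed for FOXO include the factor genes FOXO1, FOXO3 and FOXO4 beside targets. Under oxamate 5 rose and 4 fell in parental cells, and 1 rose and 6 fell in resistant cells. Of all genes 58.7% and 21.5% were called in these comparisons. Between the lines 3 were higher and 6 lower in resistant cells without drug (median log2 -0.15, or 0.07 with library totals alone). There 75.7% of all genes were called, with a median of 0.03 under TMM scaling. SESN3, a stress-response gene, was higher in untreated resistant cells by a log2 difference of 2.43 (adjusted p = 1.21e-09). Its level was low, at 0.338 CPM (17 to 43 counts) in untreated parental and 1.87 CPM in untreated resistant cells. PIK3IP1, an inhibitor of PI3 kinase, rose under oxamate in parental cells, from 4.78 to 6.87 CPM (log2 0.53, adjusted p = 8.22e-06). BCL6, a transcriptional repressor, was at 38.6 and 52.7 CPM in parental and 24.4 and 21.3 CPM in resistant cells. CDKN1B, the gene of the cell cycle inhibitor p27, fell under oxamate in both lines (log2 -0.25 and -0.26).

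The 6 tested genes listed for glucocorticoids include the receptor gene NR3C1, and KLF9 is in both lists. Under oxamate 3 rose and 2 fell in parental cells, and 0 rose and 4 fell in resistant cells. The shares of all genes called were those given for the FOXO list. Between the untreated lines 1 was higher and 5 lower in resistant cells (median log2 -0.30, or -0.08 with library totals alone). TSC22D3, the gene of a glucocorticoid-induced leucine zipper protein, was at 21.5 and 44.8 CPM in untreated and treated parental cells and 13.9 and 14.5 CPM in resistant cells. PER1, a circadian clock gene, was at 288 and 468 CPM in parental and 101 and 79.7 CPM in resistant cells.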
